A study of Mus musculus with 11 samples.

Results

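The passage of wild-type (WT) thymocytes from the DN2 to the DN3 stage was described from 3 DN2 WT and 3 DN3 WT libraries, which are 6 of the 11 RNA-seq libraries of the series and were taken by their stage and genotype labels. Both stages are CD4–CD8– (double negative) thymocytes of C57BL/6J mice, sorted as CD44+CD25+ cells for DN2 and as CD44–CD25+ cells for DN3 after lineage-positive cells had been gated out, and no WT animal carried a modified allele or received a treatment. The other 5 libraries come from Arpp21–/– mice, which lack the full-length form of the RNA-binding protein Arpp21, and enter only 1 alternative fit. Nothing in the labels says that the 3 libraries of a stage came from separate animals, so the p values measure the spread between libraries, which may be technical. Because RNA was taken from sorted bulk populations, a lower share of cells of one kind and less RNA per cell cannot be told apart in any value below.

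In the thymus, DN2 cells still hold the potential for other blood lineages and divide in response to Kit ligand and interleukin 7. Notch signalling from the thymic epithelium, with transcription factors such as TCF-1, GATA3 and Bcl11b, commits them to the T lineage. At DN3 the RAG recombinase rearranges the T cell receptor β, γ and δ loci, and a rearranged β chain pairs with the invariant pre-Tα chain and the CD3 chains in the pre-TCR, whose signal (β selection) carries cells out of the stage.

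The 6 libraries held between 20546499 and 25040253 estimated read pairs, with 10 or more counts for 12009 to 12576 genes per library. Levels are given in CPM, counts relative to the library total on the TMM scale. Across genes, no independent replicates of each other, Pearson's r of log2 CPM was 0.942 to 0.944 among DN2, 0.971 to 0.981 among DN3 and 0.879 to 0.909 between DN2 and DN3 libraries. The median SD of log2 CPM over genes was 0.315 in DN2 and 0.186 in DN3, so the DN2 libraries were the more variable. A count of 0 allows up to 3 counts per library, about 0.135 CPM in DN2 and 0.143 CPM in DN3, and such limits cover counting error only.

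Of 12479 genes tested with edgeR's quasi-likelihood test and Benjamini-Hochberg adjustment, 829 were higher in DN3 (6.64%) and 1117 were lower (8.95%) at an adjusted p under 0.05, and 3606 had an unadjusted p under 0.05. Below, "rose" and "fell" stand for these calls from DN2 to DN3, and fold changes are DN3 over DN2 with n = 3 libraries per stage. Means are given in the order DN2, DN3, and values of single libraries in the order of their replicate numbers. For each called gene the libraries of the stages did not overlap, but overlap was also absent in many genes without a call, since 2346 of all genes tested (18.8%) were higher in each DN3 library than in any DN2 library and 2209 (17.7%) were lower. The change was over 4-fold for 312 of the genes that rose and 316 of those that fell, and the median log2 fold change of all genes tested was 0.032. Higher calls made up 42.6% of all calls, but 54.0% and 52.8% in limma-trend fits of log2(TPM + 1) and log2(TPM + 0.1), in which the median of all genes shifted to 0.128 and 0.141. With the replicate number as a block, 1366 genes rose and 1532 fell, whereas a fit to all 11 libraries called 256 and 306. No gene called here changed sign in any alternative. Log2 fold changes rose slightly with effective transcript length (Spearman's rho 0.136 across genes), from a median of −0.066 in the shortest of 5 equal bins of genes to 0.166 in the longest, and the part of length in single genes was not tested. A gene seen in 1 stage only passes the filter on low counts through that stage, so counts and medians over lists of tested genes are given as description. Counts are to be read beside the 6.64% and 8.95% of all genes tested. Setting genes at 0 in a stage at their bound left the medians as they were. At most 2 genes per list were set so and each kept its direction, so a median could hardly move. The part of the filter was not tested.

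**Figure D1:**
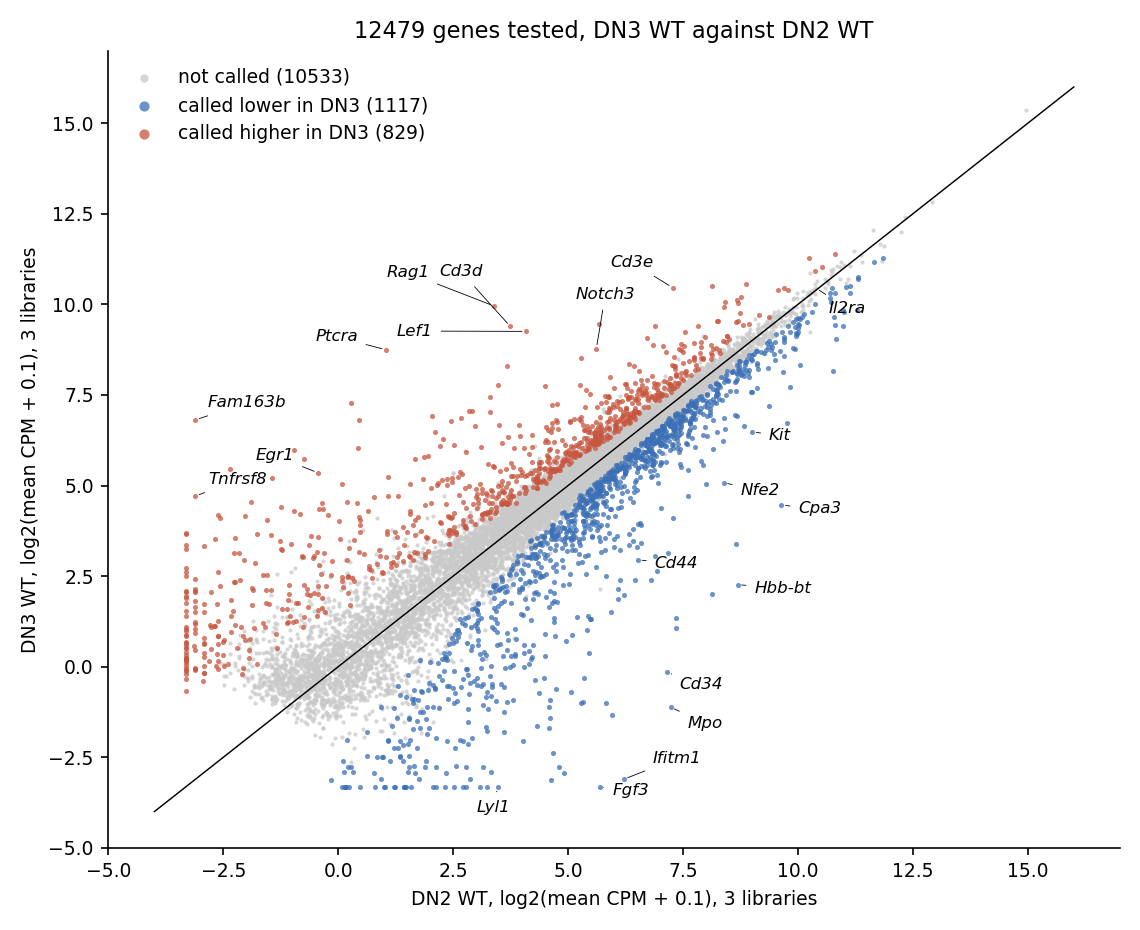
Mean level of each gene tested in the 3 DN3 WT libraries (vertical axis) against that in the 3 DN2 WT libraries (horizontal axis), both as log2(mean CPM + 0.1), with genes called higher or lower in DN3 in colour and the diagonal marking equal levels. The 829 and 1117 called genes lie at all levels, with Ptcra, Rag1 and Cd3d above the diagonal and Cd34, Kit and Mpo below it.

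Cd44, the adhesion receptor whose loss defines DN3, had 89.9, 114 and 70.1 CPM in DN2 and 6.97, 5.81 and 10.1 CPM in DN3 (log2 fold change -3.58, SE 0.282, adjusted p = 0.000261). Kit, the receptor for stem cell factor, had 531, 468 and 542 CPM in DN2 and 102, 64.9 and 100.3 CPM in DN3 (log2 fold change -2.52, SE 0.187, adjusted p = 0.000201). The progenitor sialomucin Cd34 had 137, 166 and 126 CPM in DN2 and 0.673, 0.783 and 0.9304 CPM in DN3 (log2 fold change -7.48, SE 0.210, adjusted p = 3.54e-06). All 3 were lower in each DN3 library than in any DN2 library. Il2ra, which encodes CD25, the marker both gates share, had 1797, 1088 and 1131 CPM in DN2 and 1768, 1168 and 1273 CPM in DN3 (adjusted p = 0.894), and its libraries overlapped between the stages. Transcripts of the later coreceptors were rare at both stages. Cd4 averaged 0.0745 and 1.18 CPM and was not tested, Cd8a averaged 1.12 and 3.05 CPM (adjusted p = 0.275), and Cd8b1 rose from 0.705 to 8.68 CPM (log2 fold change 3.61). Kit and Cd8b1 did not pass in the fit to all 11 libraries (adjusted p from 0.0665 to 0.137).

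**Figure D2:**
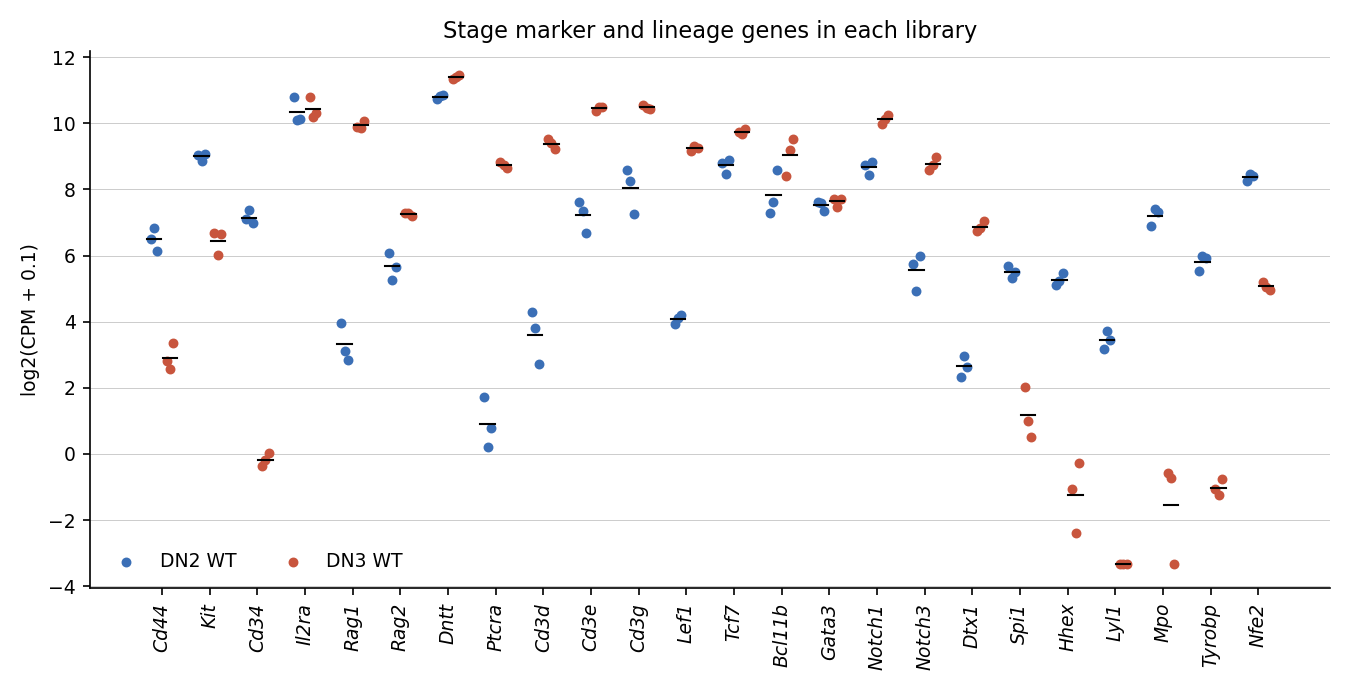
Level as log2(CPM + 0.1) (vertical axis) of named genes (horizontal axis) in each of the 3 DN2 WT and 3 DN3 WT libraries, each point a library and each bar the mean of a stage. Cd34, Kit and Cd44 sit lower in every DN3 library, Rag1, Ptcra and the CD3 genes sit higher, and Il2ra overlaps.

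The largest rises were in genes close to 0 in DN2. Fam163b (ENSMUSG00000009216.7, GRCm38 chromosome 2, 27110380 to 27142491) had 0, 0.0477 and 0 CPM in DN2 and 98.4, 112 and 126 CPM in DN3, a ratio of 7510-fold, with a counting interval of 1350 to 297000. Its neighbour Adamtsl2 (chromosome 2, 27079379 to 27108981), an extracellular matrix protein, was at 0 in all DN2 libraries and at 12.8, 10.6 and 14.98 CPM in DN3, at least 94.9-fold higher. Atoh8, a basic helix-loop-helix factor, and Cldn4, a tight junction claudin, were also at 0 in DN2 and were at least 93.6-fold and at least 75.7-fold higher at DN3. Tnfrsf8, which encodes CD30, had 0, 0.0477 and 0 CPM in DN2 and 28.1, 27.3 and 22.4 CPM in DN3, a ratio of 1740-fold, with a counting interval of 312 to 68800. Absence of overlap between the stages was part of the rule that picked these genes, so it is no separate result. The size of their rises is bounded by counting error in DN2. The other genes of the 12 largest rises were Slc5a9 (0.0942 to 44.03 CPM, log2 fold change 8.84), Ptcra, the inhibitory surface ligand Cd200 (0.0677 to 17.1 CPM, log2 fold change 7.75), the teneurin Tenm1 (0.415 to 62.7 CPM, log2 fold change 7.21), the sodium channel subunit Scn4b (1.11 to 156 CPM, log2 fold change 7.16), the synaptotagmin Syt13 (0.168 to 23.4 CPM, log2 fold change 7.09) and the potassium channel Kcnh3 (0.267 to 36.8 CPM, log2 fold change 7.02).

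The deepest falls led with Fgf3, a fibroblast growth factor, which had 21.3, 58.8 and 73.99 CPM in DN2 and 0 in all DN3 libraries, at least 359-fold lower. Ifitm1, an interferon-inducible membrane protein, had 67.8, 84.98 and 69.1 CPM in DN2 and 0.0481, 0 and 0 CPM in DN3, a ratio of DN2 to DN3 of 4640-fold, with a counting interval of 832 to 183000. Itga2b, the integrin chain CD41 of early progenitors and megakaryocytes, had 20.9, 26.9 and 26.1 CPM in DN2 and 0, 0.0461 and 0 CPM in DN3, a ratio of 1550-fold, with a counting interval of 279 to 61400. Olfm5 and Clec4e, a C-type lectin of myeloid cells, had ratios of 938-fold, with a counting interval of 259 to 7750, and 585-fold, with a counting interval of 200 to 2840. Each DN3 library was below each DN2 library, as the same rule required. The rest of the 12 largest falls were Lyl1, Mpo, Cd34, Tyrobp, the serpin Serpina3g (25.4 to 0.0921 CPM, log2 fold change -7.98), Drc7 (61.8 to 0.299 CPM, log2 fold change -7.65) and the melanocortin receptor Mc5r (23.8 to 0.209 CPM, log2 fold change -6.803).

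TPM allow levels of different genes to be compared, and protein-coding genes outside the mitochondrial genome were ranked by them. The largest gains from DN2 to DN3 among genes that rose were those of Cd3g (596, 434 and 227 TPM in DN2 and 2438, 2160 and 2207 TPM in DN3), Ly6d (1606, 1647 and 2008 TPM in DN2 and 3169, 3058 and 3446 TPM in DN3) and Cd3e (208, 159 and 108 TPM in DN2 and 1518, 1540 and 1651 TPM in DN3). Each DN3 library exceeded each DN2 library for all 3. The largest losses among genes that fell were those of Plac8 (3047, 4051 and 3935 TPM in DN2 and 757, 636 and 587 TPM in DN3), Crip1 (9002, 11820 and 10830 TPM in DN2 and 7708, 7583 and 7583 TPM in DN3) and Gpx1 (2646, 3210 and 2983 TPM in DN2 and 1050, 1062 and 1064 TPM in DN3), followed by Tmsb4x and Ly6e. Plac8 marks early lymphoid and myeloid progenitors, Gpx1 is a glutathione peroxidase, and Tmsb4x (log2 fold change -1.14) encodes the actin-binding thymosin β4. Lars2, Rps14 and Hist1h2ap also had large TPM differences but did not pass the test (adjusted p = 0.384, 0.0639 and 0.188). Under the replicate block Lars2, Rps14 and Hist1h2ap passed the test (adjusted p = 0.0224, 0.00299 and 0.00439). Crip1 lost the call when DN3 WT replicate 1, 2 or 3 was left out (adjusted p up to 0.0699). Ly6d, Crip1, Gpx1, Tmsb4x and Ly6e lost the call when all 11 libraries were fitted (adjusted p from 0.207 to 0.706).

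Of the V(D)J recombinase and end joining genes, 6 rose and 2 fell among the 17 listed genes, all of which were tested (median log2 fold change 0.58). Rag1 (ENSMUSG00000061311.6, chromosome 2, 101638282 to 101649501), which with Rag2 forms the recombinase that cuts antigen receptor loci, had 15.6, 8.63 and 7.07 CPM in DN2 and 953, 937 and 1077 CPM in DN3 (log2 fold change 6.57, SE 0.327, adjusted p = 4.42e-05). Rag2, its neighbour, had 67.9, 38.3 and 50.8 CPM in DN2 and 158, 155 and 148 CPM in DN3 (log2 fold change 1.55, SE 0.202, adjusted p = 0.00229). Neither gene's libraries overlapped, and Rag2 rose by the smaller fold. Lig4, the ligase of end joining, rose from 34.96 to 80.1 CPM. Dclre1c, which encodes the hairpin-opening nuclease Artemis, rose from 6.67 to 14.4 CPM, and Xrcc6, which encodes Ku70, from 351 to 554 CPM. Dntt, which encodes TdT, the polymerase that adds N nucleotides at coding joints, was already at 1789 CPM in DN2 and reached 2705 CPM (log2 fold change 0.597, SE 0.0786, adjusted p = 0.00245). The DNA-bending cofactors Hmgb1 and Hmgb2 went the other way, from 2230 to 1458 CPM and from 993 to 596 CPM (log2 fold changes -0.61 and -0.74). Of the members that did not pass, Nhej1 averaged 10.4 and 8.70 CPM and Xrcc5, the Ku80 gene, 66.9 and 99.9 CPM. Xrcc5 passed the test with the replicate block (adjusted p = 0.0247). Dclre1c missed the threshold without any 1 library, with an adjusted p of up to 0.159. Xrcc6 did not pass without DN3 WT replicate 3 (adjusted p up to 0.0509). A fit to all 11 libraries did not call Lig4, Dclre1c, Xrcc6, Dntt, Hmgb1 and Hmgb2 (adjusted p from 0.212 to 0.859). Dclre1c lost the call with limma voom (adjusted p = 0.107). Dclre1c lost the call with no filter on low counts (adjusted p = 0.0583). V(D)J recombination genes numbered 2 rises and 0 falls with all 11 libraries.

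Genes of the pre-TCR and of its proximal signalling gained in summed level. Their TPM summed to 7793, 7374 and 7494 in DN2 and to 14570, 13740 and 14550 in DN3. By count, the 36 listed genes were all tested, 14 rose, 2 fell, and their median log2 fold change was 0.29. Ptcra (ENSMUSG00000036858.8, chromosome 17, 46755663 to 46763712), the pre-Tα chain, had 3.18, 1.05 and 1.62 CPM in DN2 and 459.5, 425 and 405 CPM in DN3 (log2 fold change 7.78, SE 0.369, adjusted p = 3.59e-05). Cd3d had 19.3, 14.1 and 6.46 CPM in DN2 and 741, 678 and 593 CPM in DN3 (log2 fold change 5.66, SE 0.400, adjusted p = 0.000164). Cd3e had 197, 163 and 104 CPM in DN2 and 1332, 1445 and 1454 CPM in DN3 (log2 fold change 3.19, SE 0.229, adjusted p = 0.000178). Per length, Cd3d had 24.97, 13.8 and 6.38 TPM in DN2 and 737, 646 and 598 TPM in DN3, which can be set beside the TPM of Cd3e and Cd3g above. Cd3d was below both in every library of DN2 and of DN3. The ζ chain gene Cd247 rose less, from 98.8 to 188 CPM (log2 fold change 0.93). Cd247 did not pass with all 11 libraries fitted (adjusted p = 0.0722). Pre-TCR and signalling genes counted 17 rises and 5 falls with the replicate block, 5 and 1 with all 11 libraries and 12 to 15 and 2 to 4 with 1 library left out (moved over 1.5 times by DN2 WT replicate 1).

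The kinase Zap70, which docks on phosphorylated CD3 and ζ chains, rose from 11.7 to 72.6 CPM (log2 fold change 2.64), while Syk, its relative, fell from 116 to 71.99 CPM (log2 fold change -0.68). Lck, the Src-family kinase upstream of both, had 1270, 1177 and 1200 CPM in DN2 and 2423, 2367 and 2650 CPM in DN3 (log2 fold change 1.03, SE 0.0850, adjusted p = 0.000317). The adaptors Themis (134 to 459 CPM, log2 fold change 1.78), Pag1 (77.4 to 206 CPM, log2 fold change 1.41), Lat (236 to 450.1 CPM, log2 fold change 0.93) and Grap2 (24.1 to 44.8 CPM, log2 fold change 0.895) and the factor Nfatc2 (18.4 to 40.4 CPM, log2 fold change 1.13) rose as well. Tespa1, an adaptor of T cell receptor signalling, fell from 170 to 83.8 CPM (log2 fold change -1.02). The β constant regions Trbc2 (1104 and 1329 CPM) and Trbc1 (839 and 696 CPM) and the adaptors Vav1 (284 and 334 CPM) and Lcp2 (233 and 239.5 CPM) had the highest TPM among those that did not pass. With the replicate number as a block, Trbc2 and Trbc1 passed the test (adjusted p = 0.0161 and 0.023). Syk, Lck, Themis, Pag1, Lat, Grap2 and Nfatc2 did not pass with all 11 libraries fitted (adjusted p from 0.077 to 0.927). Syk lost the call with TPM in limma-trend (adjusted p up to 0.0947).

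The stretches just upstream of Rag1, Ptcra, Cd3d and Cd3g are shown because the first 3 had the largest fold rises of the recombinase and receptor lists and Cd3g, the neighbour of Cd3d, the largest gain in TPM among protein-coding genes that rose, mitochondrial genes left out (RefSeq starts, GRCm38, 5′ to 3′ on the strand of the gene, the last base adjoining the start), with capitals for E-boxes of the letters CAGGTG (or CACCTG on the other strand) and CAGCTG, the sites that E proteins such as the product of Tcf3 and Tcf12 can bind.
Rag1, chr2:101649533-101649692, minus strand: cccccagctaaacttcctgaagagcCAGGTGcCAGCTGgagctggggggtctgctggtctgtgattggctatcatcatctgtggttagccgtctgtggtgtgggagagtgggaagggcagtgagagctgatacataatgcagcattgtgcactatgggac
Ptcra, chr17:46763713-46763872, minus strand: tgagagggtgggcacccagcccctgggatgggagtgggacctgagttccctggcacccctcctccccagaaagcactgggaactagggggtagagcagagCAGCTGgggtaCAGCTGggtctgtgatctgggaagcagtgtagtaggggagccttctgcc
Cd3d, chr9:44981626-44981785, plus strand: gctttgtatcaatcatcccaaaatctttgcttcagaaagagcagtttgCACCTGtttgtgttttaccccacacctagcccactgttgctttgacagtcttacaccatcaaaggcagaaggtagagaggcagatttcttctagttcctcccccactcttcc
Cd3g, chr9:44980432-44980591, minus strand: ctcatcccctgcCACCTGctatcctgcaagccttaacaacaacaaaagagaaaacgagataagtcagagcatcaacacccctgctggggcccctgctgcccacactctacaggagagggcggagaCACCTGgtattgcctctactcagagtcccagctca

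The adjoining E-boxes of Rag1 began 135 and 128 bases before its start, those of Ptcra 60 and 49 bases, that of Cd3d 112 bases, and those of Cd3g 148 and 35 bases. Cd3d and Cd3g are transcribed away from each other from starts 1355 bases apart. Over windows from 250 bases before to 50 after the start, CAGGTG on either strand was found in 16.99% of the 9284 promoters of genes tested, in 23.3% of the 583 of genes that rose and in 13.6% of the 874 of genes that fell. For CAGCTG, which reads the same on both strands, the shares were 14.5%, 18.01% and 17.3%. TGTGGT, the core letters of a Runx site, was found in 12.6%, 10.5% and 15.3%, and AGATAA, which a GATA factor can bind, in 6.52%, 6.003% and 8.12%. The median G and C content was 60.7%, 61.0% and 59.7%. These shares were not tested, and a match of letters is not evidence of binding.

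Among segments of the T cell receptor genes, most V segments tested rose. Of 45 V genes tested 34 rose and 1 fell, against 3 and 6 of 18 J genes, beside 6.64% and 8.95% of all genes tested. V genes at 0 in DN2, such as Trbv20 and Trdv1, passed the filter on low counts only through DN3. They could therefore only rise. Trav14d-1 and Trav14n-1 had the same values in every library, so the rises counted are not all separate. The sums below do not depend on this filter. The Trbv genes summed to 118, 136 and 125 CPM in DN2 and to 329.8, 326 and 331 CPM in DN3, and 18 of the 20 tested rose. In DN2, Trbv12-2 and Trbv13-2 held 88.1%, 86.8% and 87.2% of this sum, but 26.0%, 27.5% and 26.9% in DN3. The other Trbv genes together went from 14.05, 17.9 and 15.97 CPM to 244, 236 and 242 CPM. This pair thus made up most of the Trbv sum in DN2. Of 22 Trbv genes, 16, 13 and 14 had at least 3 counts in the DN2 libraries and 21, 22 and 22 in the DN3 libraries. Trbv20 was at 0 in all DN2 libraries and was at least 47.9-fold higher at DN3. The Trbj genes together went from a mean of 151 ± 2.25 to 66.2 ± 7.17 CPM (SD, n = 3), with Trbj1-1 going from 69.4 to 9.21 CPM (log2 fold change -2.91). The constant genes Trbc1 and Trbc2 summed to 1943 ± 146 and 2026 ± 65.5 CPM, and their libraries overlapped between the stages.

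The γ locus showed the same contrast. Trgv genes summed to 19.1, 18.1 and 19.3 CPM in DN2 and to 451.5, 412 and 448.5 CPM in DN3, and all 5 tested rose, led in level by Trgv2 (12.6 to 312 CPM, log2 fold change 4.62) and Tcrg-V4 (4.21 to 89.6 CPM, log2 fold change 4.41). Trgj genes went from 117 ± 10.4 to 41.5 ± 3.35 CPM, with 3 of 4 falling. The γ constant genes summed to 3194 ± 177.5 CPM in DN2 and 2044 ± 94.2 CPM in DN3, since Tcrg-C1 (1797 to 684 CPM, log2 fold change -1.39) and Tcrg-C3 (55.8 to 9.15 CPM, log2 fold change -2.61) fell. Tcrg-C2 (1083 and 1029 CPM) and Tcrg-C4 (258 and 322 CPM) did not pass. Trdv genes went from 1.77 ± 0.744 to 23.3 ± 2.94 CPM with all 3 tested called, and Trdc had 207, 225 and 245 CPM in DN2 and 308, 277 and 308 CPM in DN3 (log2 fold change 0.401, adjusted p = 0.0345). At the α locus, Trav genes summed to 6.73 ± 0.754 and 20.8 ± 2.32 CPM and Traj genes to 0.0947 ± 0.0953 and 0.638 ± 0.139 CPM, and Trac averaged 2.24 and 6.21 CPM (adjusted p = 0.0801). D segments were at 0 in every library, but their entries are very short, such as Trbd1 at chromosome 6, 41533201 to 41533212. Reads could hardly be assigned to them, so the 0 does not show that D segments were absent from transcripts. Segments are short and alike, so reads may be missed, and those assigned to one V or J gene may come from another. Under the replicate block Tcrg-C4 and Trac passed the test (adjusted p = 0.0476 and 0.0401). Trdc lost the call when any 1 library was left out (adjusted p up to 0.179). Tcrg-C1 and Trdc did not pass in the fit to all 11 libraries (adjusted p from 0.0532 to 0.612). Trdc lost the call with no filter on low counts (adjusted p = 0.0782).

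**Figure D3:**
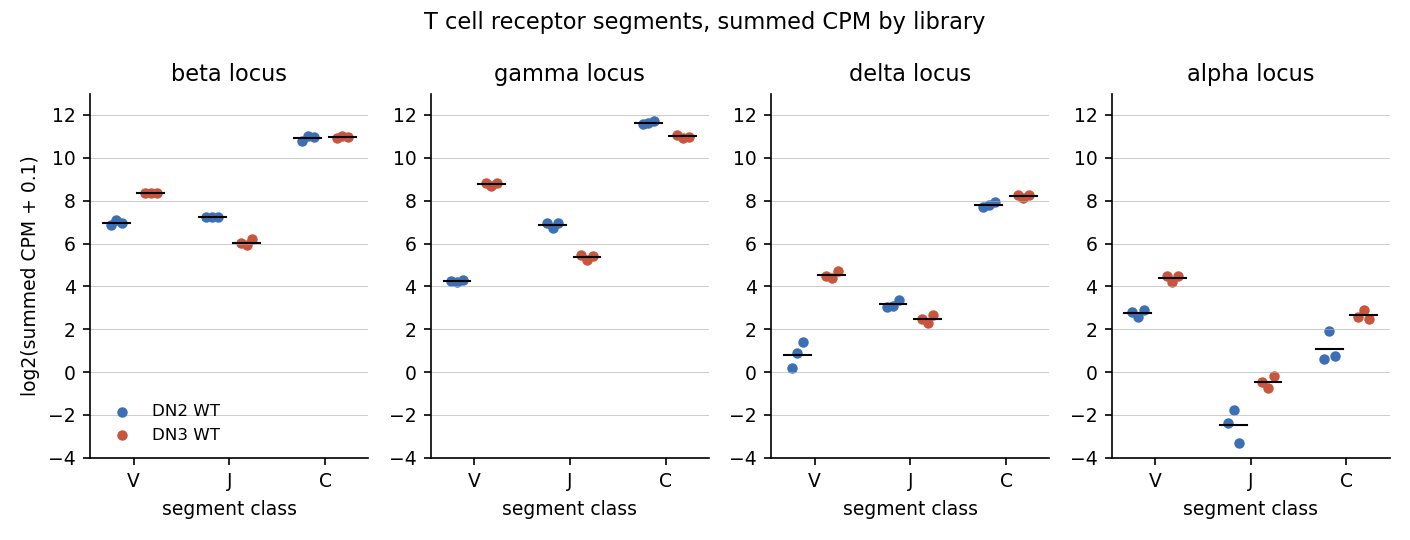
Summed level as log2(summed CPM + 0.1) (vertical axis) of the V, J and constant (C) segments of each T cell receptor locus in each of the 3 DN2 WT and 3 DN3 WT libraries, where the α panel leaves out V segments shared with the δ locus; points are libraries and bars stage means. V sums lie higher in DN3 at each locus, J sums of the β, γ and δ loci lie lower, and β constant sums overlap.

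Notch receptors and direct targets were among the genes that rose. Of receptors, modifiers and targets, 24 of the 25 genes of the list were tested, of which 4 rose and 0 fell, at a median log2 fold change of 0.105. Dtx1, a direct Notch target that encodes the ubiquitin ligase Deltex, had 4.96, 7.67 and 6.13 CPM in DN2 and 106, 115 and 131 CPM in DN3 (log2 fold change 4.23, SE 0.204, adjusted p = 3.83e-05). The receptor Notch3 had 53.2, 30.4 and 63.02 CPM in DN2 and 382, 431 and 503 CPM in DN3 (log2 fold change 3.16, SE 0.271, adjusted p = 0.000372). Its relative Notch1 had 426, 346 and 454 CPM in DN2 and 1007, 1111 and 1224 CPM in DN3 (log2 fold change 1.45, SE 0.130, adjusted p = 0.000447). The 3 genes did not overlap between the stages. Heyl, a Hairy-related repressor downstream of Notch, rose from 0.587 to 7.86 CPM. The remaining members did not pass the test. Hes1, a classic target, averaged 36.8 and 52.3 CPM (adjusted p = 0.538). The DNA-binding partner Rbpj averaged 129 and 114 CPM and the protease Adam10, which cleaves the receptor, 263 and 233 CPM. The Fringe glycosyltransferases Mfng and Lfng averaged 89.3 and 97.1 CPM, and 69.2 and 43.9 CPM. Lfng passed the test with the replicate block (adjusted p = 0.0102). Heyl missed the threshold without DN2 WT replicate 3 or DN3 WT replicate 1, 2 or 3, with an adjusted p of up to 0.135. Notch1 and Heyl lost the call when all 11 libraries were fitted (adjusted p from 0.164 to 0.509). Genes of the Notch list numbered 4 rises and 1 fall with the replicate block, 2 and 0 with all 11 libraries and 3 to 5 and 0 to 1 with 1 library left out (moved over 1.5 times by DN2 WT replicate 1).

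Transcription factors of the T lineage rose more often than they fell. In the list, 11 rose and 2 fell among the 29 of 30 listed genes that were tested (median log2 fold change 0.63). Lef1, the HMG-box partner of TCF-1, had 15.03, 17.3 and 18.3 CPM in DN2 and 578, 638 and 616 CPM in DN3 (log2 fold change 5.18, SE 0.121, adjusted p = 2.27e-06). Tcf7, which encodes TCF-1, had 446, 356 and 477 CPM in DN2 and 859, 821 and 905 CPM in DN3 (log2 fold change 1.01, SE 0.123, adjusted p = 0.00171). Egr1, which pre-TCR signals induce, had 0.655, 0 and 1.26 CPM in DN2 and 25.9, 44.0 and 52.1 CPM in DN3 (log2 fold change 5.95, SE 0.834, adjusted p = 0.00321). Egr3 was at 0 in all DN2 libraries and at least 6.25-fold higher at a mean of 0.845 CPM in DN3. Each DN3 library of Lef1, Tcf7 and Egr1 stood above each DN2 library. Ikzf3, which encodes Aiolos, rose from 0.126 to 5.15 CPM (log2 fold change 5.24). Spib, an Ets-family factor, rose from 3.53 to 55.04 CPM (log2 fold change 3.97), and the zinc finger factor Hivep3 from 15.2 to 102 CPM (log2 fold change 2.75). Ets2 and Ets1 rose from 25.1 to 149 CPM (log2 fold change 2.57), and from 412 to 1048 CPM (log2 fold change 1.34). Runx3 fell from 41.2 to 14.1 CPM (log2 fold change -1.55), whereas Runx1 rose from 283 to 439 CPM (log2 fold change 0.63). Myb fell from 807 to 605 CPM (log2 fold change -0.42). Egr3 and Myb did not pass without DN3 WT replicate 1, 2 or 3 (adjusted p up to 0.0576 and 0.0916). A fit to all 11 libraries did not call Tcf7, Egr3, Ikzf3, Spib, Ets1, Runx3, Runx1 and Myb (adjusted p from 0.0596 to 0.949). Runx1 lost the call with an offset for transcript length (adjusted p = 0.0663). Runx1 and Myb lost the call with TPM in limma-trend (adjusted p up to 0.167). T lineage factors counted 4 rises and 0 falls with all 11 libraries and 10 to 13 and 1 to 2 with 1 library left out (moved over 1.5 times by DN3 WT replicates 1, 2 and 3).

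Some regulators with a known part in commitment did not pass. Bcl11b, the zinc finger factor of commitment, had 156, 196 and 385 CPM in DN2 and 343, 591 and 739 CPM in DN3 (log2 fold change 1.18, adjusted p = 0.0852). Gata3 had 195, 194 and 163 CPM in DN2 and 211, 177 and 210.2 CPM in DN3 (adjusted p = 0.587). Satb1, a chromatin organiser, averaged 150 and 250 CPM and Ikzf1, which encodes Ikaros, 195 and 238 CPM. Gata3 and Bcl11b levels overlapped between the stages, and the mean of Bcl11b was higher in DN3. Of the E proteins and their partners, 7 of 9 listed genes were tested, 2 rose, 2 fell, and their median log2 fold change was -0.03. Id3, which binds E proteins and blocks their DNA contact, had 12.1, 11.96 and 14.4 CPM in DN2 and 76.5, 80.7 and 86.9 CPM in DN3 (log2 fold change 2.66, SE 0.150, adjusted p = 7.04e-05). Tcf12, which encodes HEB, rose from 213 to 351 CPM (log2 fold change 0.72). Tcf3, the E2A gene, averaged 344 and 327 CPM, Tcf4 72.7 and 71.4 CPM and Id2 12.5 and 12.4 CPM, and these 3 did not pass. With the replicate number as a block, Bcl11b, Satb1 and Ikzf1 passed the test (adjusted p = 0.000312, 0.000936 and 0.0425). Tcf12 did not pass with all 11 libraries fitted (adjusted p = 0.702). E protein genes numbered 1 rise and 2 falls with all 11 libraries.

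Progenitor transcription factors moved the other way, and none rose. For this list, 23 of the 33 genes of the list were tested, of which 0 rose and 13 fell, at a median log2 fold change of -0.96. Lyl1, a bHLH factor that pairs with E proteins, had 8.85, 13.2 and 10.8 CPM in DN2 and 0 in all DN3 libraries, at least 76.5-fold lower, and its relative Tal1 was at least 18.1-fold lower by the same reckoning. Hhex, a homeobox factor of progenitors, had 34.7, 37.6 and 44.1 CPM in DN2 and 0.385, 0.0921 and 0.735 CPM in DN3 (log2 fold change -6.58, SE 0.527, adjusted p = 0.000272). Spi1, which encodes PU.1, the factor of myeloid fate, had 50.9, 39.9 and 45.3 CPM in DN2 and 3.99, 1.89 and 1.32 CPM in DN3 (log2 fold change -4.24, SE 0.412, adjusted p = 0.000664). Nfe2, a bZIP factor of megakaryocytes, fell from 334 to 33.7 CPM (log2 fold change -3.31). Hoxa9 (3.82 to 0.209 CPM, log2 fold change -4.16), Lmo2 (2.01 to 0.146 CPM, log2 fold change -3.75), Gfi1b (22.6 to 1.75 CPM, log2 fold change -3.68), Mycn (130.5 to 20.5 CPM, log2 fold change -2.67), Mef2c (35.4 to 9.14 CPM, log2 fold change -1.95), Erg (31.3 to 8.99 CPM, log2 fold change -1.801), Bcl11a (50.9 to 26.1 CPM, log2 fold change -0.96) and Etv6 (244 to 126 CPM, log2 fold change -0.96) completed the 13. Fli1, an Ets factor, averaged 168 and 117 CPM (adjusted p = 0.0536). Under the replicate block Fli1 passed the test (adjusted p = 0.0181). Hoxa9 and Bcl11a lost the call when DN3 WT replicate 2 or 3 was left out (adjusted p up to 0.071 and 0.0735). Lmo2 missed the threshold without DN2 WT replicate 2 or 3 or DN3 WT replicate 1, 2 or 3, with an adjusted p of up to 0.153. Lmo2, Mef2c, Erg, Bcl11a and Etv6 did not pass with all 11 libraries fitted (adjusted p from 0.0529 to 0.644). Lmo2 lost the call with an offset for transcript length (adjusted p = 0.0695). Progenitor factors counted 0 rises and 8 falls with all 11 libraries and 0 to 1 and 10 to 13 with 1 library left out (moved over 1.5 times by DN2 WT replicate 2).

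Granule and receptor genes of the myeloid lineage fell with them. In this list, 1 rose and 17 fell among the 25 of 34 listed genes that were tested (median log2 fold change -2.17). Mpo, which encodes the granule peroxidase, had 119, 170.1 and 160.4 CPM in DN2 and 0.577, 0.507 and 0 CPM in DN3 (log2 fold change -8.66, SE 0.574, adjusted p = 0.000124). Tyrobp, the adaptor DAP12, had 46.5, 62.7 and 60.7 CPM in DN2 and 0.385, 0.323 and 0.4897 CPM in DN3 (log2 fold change -7.13, SE 0.266, adjusted p = 1.42e-05). Ctsg, the granule protease cathepsin G, and the Fc receptor Fcgr3 were at 0 in DN3 and at least 45.4-fold and at least 7.07-fold lower. Other granule and myeloid genes were scarce in DN2 too, since Elane was at 0 in all 6 libraries and Prtn3, S100a8, S100a9 and Cybb averaged at most 0.34 CPM and were not tested. Csf1r, the receptor of macrophage colony-stimulating factor, fell with a ratio of DN2 to DN3 of 94.0-fold, with a counting interval of 25.7 to 781. Cd33 (5.75 to 0.113 CPM, log2 fold change -5.61) and Fcer1g (33.7 to 1.74 CPM, log2 fold change -4.27) fell too. Pld4, an endolysosomal nuclease, was the only member that rose, from 7.41 to 132 CPM (log2 fold change 4.16). The summed TPM of the list was 3888, 5042 and 4934 in DN2 and 1206, 1049 and 998.9 in DN3, with Plac8 as its largest part. Whether these transcripts lie in DN2 cells or in a few cells of another kind was not tested. Csf1r did not pass in the fit to all 11 libraries (adjusted p = 0.0586). Myeloid genes numbered 1 rise and 10 falls with all 11 libraries.

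Of genes of natural killer and innate lymphoid cells, 13 of 24 listed genes were tested, 3 rose, 6 fell, and their median log2 fold change was -1.42. Zbtb16, which encodes PLZF, and Gzmb were at 0 in all DN3 libraries, at least 39.3-fold and at least 34.5-fold lower, and Ccl5 fell from 6.997 to 0.129 CPM (log2 fold change -5.71). Gzma, a granzyme, rose against them and had 27.3, 48.9 and 39.1 CPM in DN2 and 185, 242 and 229 CPM in DN3 (log2 fold change 2.51, SE 0.225, adjusted p = 0.000447). Tnfrsf9, which encodes 4-1BB, rose from 0.793 to 5.65 CPM (log2 fold change 2.83). Tbx21, which encodes T-bet, had 0, 0.0477 and 0 CPM in DN2 and 0.962, 0.553 and 1.13 CPM in DN3, a ratio of 58.5-fold, with a counting interval of 10.1 to 2350. Nkg7, a granule membrane protein, fell from 337 to 117 CPM (log2 fold change -1.53). The defining NK genes Ncr1, Klrb1c and Eomes averaged at most 1.0 CPM in either stage and were not tested. Tnfrsf9 and Tbx21 did not pass without DN3 WT replicate 3 (adjusted p up to 0.057 and 0.064). Zbtb16, Tnfrsf9, Tbx21 and Nkg7 lost the call when all 11 libraries were fitted (adjusted p from 0.0597 to 0.151). Genes of the NK list counted 1 rise and 3 falls with all 11 libraries and 1 to 3 and 4 to 6 with 1 library left out (moved over 1.5 times by DN3 WT replicate 3).

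For genes of γδ T cells, 15 of the 16 genes of the list were tested, of which 1 rose and 4 fell, at a median log2 fold change of 0.04. Cpa3, a mast cell carboxypeptidase that γδ-biased DN2 cells also express, had 551, 879.6 and 965 CPM in DN2 and 14.7, 23.1 and 27.96 CPM in DN3 (log2 fold change -5.19, SE 0.325, adjusted p = 0.000119). The interleukin 1 receptor gene Il1r1 fell from 16.3 to 1.19 CPM (log2 fold change -3.77). The scavenger receptor gene 5830411N06Rik averaged 64.95 and 142 CPM (adjusted p = 0.269), and its relative Cd163l1 had 50.9, 16.5 and 18.3 CPM in DN2 and 61.6, 25.1 and 33.2 CPM in DN3 (adjusted p = 0.597). Both overlapped between the stages. 5830411N06Rik and Cd163l1 passed the test with the replicate block (adjusted p = 0.00216 and 0.0465). The γδ list numbered 6 rises and 4 falls with the replicate block, 0 and 3 with all 11 libraries and 0 to 2 and 4 with 1 library left out (moved over 1.5 times by any 1 library).

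Markers of other cells that a sort could carry were checked by list, and some were abundant. For B cells, 1 rose and 0 fell among the 5 of 12 listed genes that were tested (median log2 fold change -0.17). The list summed to 361.5 to 391 TPM in DN2 and 422 to 435 TPM in DN3. Cd79b was the one that rose (45.6 to 69.1 CPM, log2 fold change 0.601), and Pax5 and Cd79a were at or near 0. In CPM the list summed to 372 to 409 in DN2 and 406 to 422 in DN3, so most of it lay outside these genes. For macrophages, 3 of 12 listed genes were tested, 1 rose, 0 fell, and their median log2 fold change was 0.72. Their sum was 5.64 to 16.5 TPM in DN2 and 20.99 to 28.6 TPM in DN3. Apoe rose (5.37 to 17.1 CPM, log2 fold change 1.67), and C1qa, Adgre1 and Cd14 were near 0. For stromal and epithelial cells, 5 of the 15 genes of the list were tested, of which 1 rose and 1 fell, at a median log2 fold change of -0.22. The sums overlapped, at 81.02 to 147 TPM in DN2 and 90.7 to 183 TPM in DN3. Epcam rose from 5.66 to 69.2 CPM (log2 fold change 3.603) and Pdgfrb fell from 190.3 to 72.4 CPM (log2 fold change -1.39), while Krt5, Foxn1 and Col1a1 were near 0. For dendritic cells, 3 rose and 2 fell among the 12 of 16 listed genes that were tested (median log2 fold change -0.36). Their sum was higher in DN3, with 1869 to 2239 TPM in DN2 and 3446 to 3894 TPM in DN3. Most of it was Ly6d, described above, which averaged 1754 and 3224 TPM where the list averaged 1995 and 3643 TPM. Itgax, which encodes CD11c, fell from 20.6 to 0.508 CPM (log2 fold change -5.32) and Flt3 from 3.004 to 0.205 CPM (log2 fold change -3.83). Ccr9, on that list through plasmacytoid cells and a thymocyte receptor itself, rose from 11.1 to 220.4 CPM. For red cells, 5 of 10 listed genes were tested, 1 rose, 1 fell, and their median log2 fold change was 0.45. This list summed to 1307, 1032 and 1015 TPM in DN2 and to 299, 212 and 159 TPM in DN3, without overlap. In CPM its sums were 526, 464 and 422 in DN2 and 102, 76.8 and 54.6 in DN3. Alas2 rose from 0.06299 to 1.69 CPM. Most of the DN2 sum in CPM was the globin gene Hbb-bt, the only member that fell, from 412 to 4.703 CPM (log2 fold change -6.45). The neighbouring, nearly identical Hbb-bs averaged 29.7 and 29.7 CPM, so the split of reads between the β globin genes is uncertain. The part of such transcripts in other values was not tested. Cd79b lost the call when DN2 WT replicate 3 or DN3 WT replicate 1, 2 or 3 was left out (adjusted p up to 0.1). Apoe missed the threshold without DN3 WT replicate 1 or 2, with an adjusted p of up to 0.0614. Flt3 did not pass without DN3 WT replicate 1 or 3 (adjusted p up to 0.0658). Alas2 lost the call when DN3 WT replicate 1, 2 or 3 was left out (adjusted p up to 0.0643). A fit to all 11 libraries did not call Cd79b, Pdgfrb, Itgax and Flt3 (adjusted p from 0.0674 to 0.449). Epcam lost the call with limma voom (adjusted p = 0.106). Macrophage genes counted 0 to 1 rise and 0 falls with 1 library left out (moved over 1.5 times by DN3 WT replicates 1 and 2). Red cell genes numbered 0 to 1 rise and 1 fall with 1 library left out (moved over 1.5 times by DN3 WT replicates 1, 2 and 3). B cell genes counted 0 rises and 0 falls with all 11 libraries and 0 to 2 and 0 with 1 library left out (moved over 1.5 times by DN2 WT replicates 2 and 3 and DN3 WT replicates 1, 2 and 3). Dendritic cell genes numbered 1 rise and 0 falls with all 11 libraries and 2 to 3 and 1 to 2 with 1 library left out (moved over 1.5 times by DN3 WT replicates 1 and 3). Stromal genes counted 1 rise and 2 falls with the replicate block, 1 and 0 with all 11 libraries and 1 and 1 to 2 with 1 library left out (moved over 1.5 times by DN2 WT replicate 2).

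Surface proteins changed in both directions. Of markers and costimulatory receptors, 43 of the 48 genes of the list were tested, of which 12 rose and 16 fell, at a median log2 fold change of 0.07. Cd28, the costimulatory receptor that marks cells passing β selection, had 11.2, 7.05 and 11.1 CPM in DN2 and 134, 126 and 134 CPM in DN3 (log2 fold change 3.75, SE 0.206, adjusted p = 6.2e-05). Its relative Ctla4 rose from 4.55 to 68.01 CPM (log2 fold change 3.91). Btla had 0.0468, 0 and 0 CPM in DN2 and 1.73, 2.58 and 1.57 CPM in DN3, a ratio of 132-fold, with a counting interval of 23.2 to 5250. Among those that fell were Cd244a (24.04 to 0.364 CPM, log2 fold change -6.02), a SLAM receptor, the tetraspanin Cd63 (7.46 to 0.157 CPM, log2 fold change -5.51) and Cd7 (13.4 to 1.14 CPM, log2 fold change -3.55). Cd48, the ligand of Cd244a, fell from 408 to 120.3 CPM (log2 fold change -1.76). Thy1, the pan-T marker, rose from 42.4 to 100.6 CPM (log2 fold change 1.25), and Cd2 from 0.496 to 4.71 CPM (log2 fold change 3.24). Apart from Il2ra, the most abundant member by TPM that did not pass was Cd24a, at 393 and 477 CPM (adjusted p = 0.0895). With the replicate number as a block, Cd24a passed the test (adjusted p = 0.0305). Ctla4 missed the threshold without DN2 WT replicate 3 or DN3 WT replicate 1, 2 or 3, with an adjusted p of up to 0.0755. Cd2 did not pass without DN3 WT replicate 1 or 2 (adjusted p up to 0.0641). Cd48 and Cd2 did not pass with all 11 libraries fitted (adjusted p from 0.0807 to 0.0827). Surface markers numbered 6 rises and 9 falls with all 11 libraries.

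Genes of cytokine receptors and of their signalling fell more often than they rose. In this list, 5 rose and 11 fell among the 42 of 44 listed genes that were tested (median log2 fold change -0.19). Il4ra, the α chain of the interleukin 4 receptor, had 121, 71.5 and 95.2 CPM in DN2 and 12.98, 9.95 and 8.86 CPM in DN3 (log2 fold change -3.18, SE 0.250, adjusted p = 0.000261). Il18rap fell from 11.8 to 1.12 CPM (log2 fold change -3.401). The signalling inhibitor Socs2 fell from 41.6 to 5.78 CPM (log2 fold change -2.85), whereas Socs3 rose from 24.8 to 106 CPM (log2 fold change 2.09). Tgfbr1, the type I TGF-β receptor, rose from 161 to 313 CPM (log2 fold change 0.96). Il7r, the receptor chain on which DN2 cells depend, had 169, 112 and 161 CPM in DN2 and 111, 94.04 and 109 CPM in DN3 (adjusted p = 0.096). The shared γ chain gene Il2rg averaged 349 and 348 CPM (adjusted p = 0.987). Under the replicate block Il7r passed the test (adjusted p = 0.0133). Tgfbr1 did not pass with all 11 libraries fitted (adjusted p = 0.097). Cytokine receptor and signalling genes counted 9 rises and 13 falls with the replicate block, 1 and 4 with all 11 libraries and 2 to 5 and 7 to 12 with 1 library left out (moved over 1.5 times by DN2 WT replicates 2 and 3 and DN3 WT replicates 1, 2 and 3).

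Receptors for migration cues also fell more often, and 21 of 35 listed genes were tested, 3 rose, 7 fell, and their median log2 fold change was -0.66. Ccr9, the receptor for the thymic chemokine Ccl25, had 5.48, 12.8 and 14.99 CPM in DN2 and 202, 207 and 253 CPM in DN3 (log2 fold change 4.31, SE 0.364, adjusted p = 0.000353). Ccr4 rose from 0.173 to 4.45 CPM (log2 fold change 4.67). Ltb4r1, a leukotriene receptor, had 1.22, 3.53 and 3.697 CPM in DN2 and 0, 0.138 and 0 CPM in DN3, a ratio of DN2 to DN3 of 59.8-fold, with a counting interval of 20.2 to 293. Cxcr5 (2.81 to 0.0801 CPM, log2 fold change -5.04), the prostaglandin receptor genes Ptger3 (11.3 to 1.43 CPM, log2 fold change -2.98) and Ptger2 (8.11 to 1.57 CPM, log2 fold change -2.37) and the sphingosine phosphate receptor gene S1pr3 (25.96 to 3.96 CPM, log2 fold change -2.71) fell. Selplg, the P-selectin ligand, and Cxcr4 averaged 582 and 616 CPM and 70.1 and 68.1 CPM and did not pass. Ccr4 lost the call when DN3 WT replicate 1, 2 or 3 was left out (adjusted p up to 0.0694). Ltb4r1 missed the threshold without DN3 WT replicate 1 or 3, with an adjusted p of up to 0.0608. Cxcr5 did not pass without DN3 WT replicate 2 or 3 (adjusted p up to 0.0567). Cxcr5 did not pass in the fit to all 11 libraries (adjusted p = 0.113). Migration receptors numbered 1 to 3 rises and 4 to 7 falls with 1 library left out (moved over 1.5 times by DN3 WT replicates 2 and 3).

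Many genes of cell division fell. In G1, S phase and replication, all 56 genes of the list were tested, of which 2 rose and 28 fell, at a median log2 fold change of -0.50, and in G2 and M phase, 0 rose and 30 fell among the 41 listed genes, all of which were tested (median log2 fold change -0.74). The summed TPM of the G2 and M genes was 4609, 3545 and 3420 in DN2 and 2548, 2375 and 2295 in DN3, without overlap, and DN2 WT replicate 1 stood above the other DN2 libraries. Ccnd3, the D-type cyclin of thymocyte expansion, had 1020, 906 and 1005 CPM in DN2 and 465, 441 and 402 CPM in DN3 (log2 fold change -1.16, SE 0.0954, adjusted p = 0.000305). The kinase Cdk2 fell from 199.8 to 104 CPM (log2 fold change -0.95). The clamp loader subunit Rfc2 fell from 344 to 181 CPM (log2 fold change -0.93) and the licensing factor Cdc6 from 208 to 114 CPM (log2 fold change -0.86). The helicase subunits Mcm3 and Mcm5 fell from 1003 to 586 CPM (log2 fold change -0.78), and 1026 to 605 CPM (log2 fold change -0.76). The 2 genes of the first list that rose were Ccnd2, another D-type cyclin, from 245 to 367 CPM (log2 fold change 0.59), and Uhrf1, the maintenance methylation cofactor, from 887 to 1349 CPM (log2 fold change 0.605). Of mitotic genes, the kinetochore subunit Nuf2 fell from 88.3 to 33.8 CPM (log2 fold change -1.38), and the cytokinesis factor Ect2 from 196 to 86.4 CPM (log2 fold change -1.18). The checkpoint kinase Ttk fell from 35.1 to 15.5 CPM (log2 fold change -1.18) and the phosphatase Cdc25b from 104 to 50.6 CPM (log2 fold change -1.05). Most of these falls were under 2-fold, and at a fold above 1.5 the falls called numbered 3 and 6. Uhrf1 lost the call when DN2 WT replicate 2 or 3 or DN3 WT replicate 1, 2 or 3 was left out (adjusted p up to 0.103). Ttk missed the threshold without DN3 WT replicate 2 or 3, with an adjusted p of up to 0.078. Cdk2, Cdc6, Mcm3, Mcm5, Ccnd2, Uhrf1, Ttk and Cdc25b lost the call when all 11 libraries were fitted (adjusted p from 0.0609 to 0.803). Ttk lost the call with TPM in limma-trend (adjusted p up to 0.0984). G1 and S phase genes counted 0 rises and 2 falls with all 11 libraries and 1 to 2 and 15 to 26 with 1 library left out (moved over 1.5 times by DN2 WT replicates 2 and 3 and DN3 WT replicates 1, 2 and 3). G2 and M phase genes numbered 0 rises and 2 falls with all 11 libraries and 0 and 16 to 32 with 1 library left out (moved over 1.5 times by DN3 WT replicates 2 and 3).

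Of CDK inhibitors, p53 targets and quiescence genes, 22 of 24 listed genes were tested, 6 rose, 2 fell, and their median log2 fold change was 0.32. Btg2, an antiproliferative p53 target, had 84.3, 138 and 92.7 CPM in DN2 and 432, 639.8 and 528 CPM in DN3 (log2 fold change 2.35, SE 0.226, adjusted p = 0.000639). Trp53inp1, another p53 target, had 317, 276 and 319 CPM in DN2 and 777, 708 and 746 CPM in DN3 (log2 fold change 1.29, SE 0.0945, adjusted p = 0.000187). Txnip, a brake on glucose uptake, rose from 120.1 to 224 CPM (log2 fold change 0.901), and Pik3ip1, an inhibitor of PI3 kinase, from 163 to 271 CPM (log2 fold change 0.74). The quiescence factor Klf2 fell, from 6.29 to 0.572 CPM (log2 fold change -3.45). In the Bcl2 family 17 of the 20 genes of the list were tested, of which 2 rose and 4 fell, at a median log2 fold change of 0.04. Bmf, a BH3-only death gene, had 0.8896, 1.096 and 0.894 CPM in DN2 and 44.9, 20.4 and 33.4 CPM in DN3 (log2 fold change 5.09, SE 0.369, adjusted p = 0.000182). The survival genes Bcl2 and Bcl2l1 fell from 243 to 168 CPM (log2 fold change -0.53), and 61.9 to 41.5 CPM (log2 fold change -0.58). Bok fell from 2.08 to 0.0653 CPM (log2 fold change -4.897). Klf2 did not pass without DN2 WT replicate 3 or DN3 WT replicate 1, 2 or 3 (adjusted p up to 0.112). Bcl2 lost the call when DN3 WT replicate 2 was left out (adjusted p up to 0.0523). Bcl2l1 missed the threshold without DN2 WT replicate 1 or 3 or DN3 WT replicate 1, 2 or 3, with an adjusted p of up to 0.146. Bok did not pass without DN2 WT replicate 2 or DN3 WT replicate 1 or 2 (adjusted p up to 0.104). A fit to all 11 libraries did not call Txnip, Pik3ip1, Klf2, Bcl2, Bcl2l1 and Bok (adjusted p from 0.0514 to 0.86). Bcl2 and Bcl2l1 lost the call with an offset for transcript length (adjusted p up to 0.0751). Klf2, Bcl2 and Bcl2l1 lost the call with TPM in limma-trend (adjusted p up to 0.205). Bcl2l1 lost the call with no TMM scaling (adjusted p = 0.0563). The quiescence list counted 2 rises and 0 falls with all 11 libraries and 5 to 6 and 0 to 2 with 1 library left out (moved over 1.5 times by DN2 WT replicate 3 and DN3 WT replicates 1, 2 and 3). Bcl2 family genes numbered 4 rises and 4 falls with the replicate block, 1 and 0 with all 11 libraries and 1 to 2 and 0 to 3 with 1 library left out (moved over 1.5 times by DN3 WT replicates 1, 2 and 3).

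**Figure D4:**
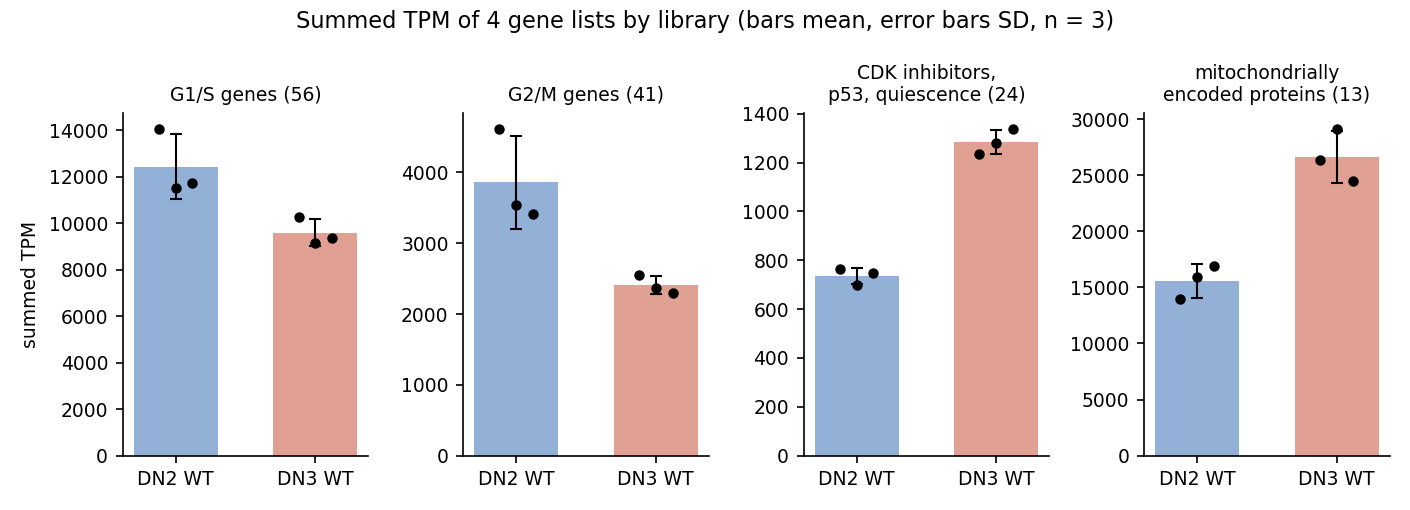
Summed TPM (vertical axis) of 4 gene lists in the DN2 WT and DN3 WT libraries, with bars at the mean of 3 libraries, error bars of 1 SD and a point for each library; the number of genes summed stands in each title. Sums of the G1 and S phase and of the G2 and M phase genes lie lower in every DN3 library than in any DN2 library, and sums of the quiescence list and of mitochondrially encoded proteins lie higher.

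Most transcripts of the mitochondrial genome rose. Of its 13 protein genes, 10 rose and 0 fell among the 13 listed genes, all of which were tested (median log2 fold change 1.11). They took 0.564, 0.681 and 0.706% of all counts in DN2 and 1.10, 1.26 and 1.06% in DN3, without overlap. mt-Co1, a subunit of cytochrome oxidase, had 426, 433 and 547 CPM in DN2 and 1318, 1695 and 1533 CPM in DN3 (log2 fold change 1.69, SE 0.140, adjusted p = 0.000321). mt-Co2 rose from 341 to 1068 CPM (log2 fold change 1.65), and mt-Cytb from 335 to 967 CPM (log2 fold change 1.53). mt-Co3 (3162 and 4234 CPM), mt-Atp8 (155 and 213 CPM) and mt-Nd3 (188 and 171 CPM) did not pass. Few nuclear genes of the same respiratory complexes passed, and 82 of 87 listed genes were tested, 0 rose, 2 fell, and their median log2 fold change was -0.05. Those that fell were Cox6a2 (8.08 to 2.32 CPM, log2 fold change -1.79) and Ndufa4 (302 to 204 CPM, log2 fold change -0.56). With all 11 libraries 2 of the 13 mitochondrial genes rose. Lars2 took 2.04 to 4.09% of counts in DN2 and 3.69 to 5.21% in DN3, nearly all of it assigned to 1 transcript, Lars2-209. The pseudogene-like Gm20594 (181 to 416 CPM, log2 fold change 1.195) shares 42 of its 419 31-mers with the mitochondrial 16S rRNA gene and Lars2 transcripts share none. Neither mitochondrial rRNA is among the genes of the files. mt-Co3 and mt-Atp8 passed the test with the replicate block (adjusted p = 0.0128 and 0.0322). Cox6a2 lost the call when DN2 WT replicate 1, 2 or 3 or DN3 WT replicate 2 or 3 was left out (adjusted p up to 0.141). Ndufa4 missed the threshold without DN2 WT replicate 3 or DN3 WT replicate 1, 2 or 3, with an adjusted p of up to 0.102. Gm20594 did not pass without DN3 WT replicate 2 or 3 (adjusted p up to 0.0849). mt-Cytb, Cox6a2, Ndufa4 and Gm20594 did not pass with all 11 libraries fitted (adjusted p from 0.0579 to 0.876). Nuclear respiratory genes counted 4 rises and 8 falls with the replicate block, 0 and 0 with all 11 libraries and 0 to 2 and 0 to 3 with 1 library left out (moved over 1.5 times by DN2 WT replicates 2 and 3 and DN3 WT replicates 1, 2 and 3).

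Cytosolic ribosomal protein genes held few calls. The list as drawn up by symbol had 94 genes tested with 1 that rose and 3 that fell, all 4 of them S6 kinase genes (Rps6kl1, Rps6ka2, Rps6ka5 and Rps6ka1) that the symbol pattern had taken in. Among the 85 ribosomal protein genes proper, 0 rose and 0 fell by edgeR, 2 had an unadjusted p under 0.05, DESeq2 called 1 and the replicate block 7, and their log2 fold changes lay between −0.322 and 0.605 with a median of 0.08. Their summed TPM, the kinases included, was 96340 in DN2 WT replicate 1 and between 128200 and 153300 in the other 5 libraries, so DN2 WT replicate 1 stood apart here. Rps6ka1 lost the call when DN2 WT replicate 2 or 3 or DN3 WT replicate 1 or 2 was left out (adjusted p up to 0.105). Rps6ka2, Rps6ka5 and Rps6ka1 did not pass with all 11 libraries fitted (adjusted p from 0.0532 to 0.679). Rps6ka1 lost the call with TPM in limma-trend (adjusted p up to 0.0651). Rps6ka1 lost the call with limma voom (adjusted p = 0.0598).

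Metabolic genes were called in both directions. Shares of rises and falls were 13.8% and 13.8% in glycolysis, 12.5% and 0% in lipid synthesis and 11.5% and 11.5% among growth genes, beside 6.64% and 8.95% of all genes. In glucose uptake and glycolysis all 29 genes of the list were tested, of which 4 rose and 4 fell, at a median log2 fold change of 0.13. Ldhb, a lactate dehydrogenase subunit, had 14.4, 12.9 and 6.38 CPM in DN2 and 72.4, 117 and 116 CPM in DN3 (log2 fold change 3.19, SE 0.347, adjusted p = 0.00109). The hexokinase Hk3 fell from 1.44 to 0.0804 CPM (log2 fold change -4.08), and the lactate exporter Slc16a3 fell from 8.12 to 1.41 CPM (log2 fold change -2.52). Gapdh, Ldha and Pkm averaged 2049 and 2155 CPM, 1729 and 2009 CPM, and 1016 and 1162 CPM and did not pass. For cholesterol and fatty acid synthesis 4 rose and 0 fell among the 32 listed genes, all of which were tested (median log2 fold change 0.19). Among them were the reductase Dhcr7 (88.6 to 166 CPM, log2 fold change 0.91) and the regulator Srebf2 (278 to 392 CPM, log2 fold change 0.49). For nutrient transporters and growth the 26 listed genes were all tested, 3 rose, 3 fell, and their median log2 fold change was 0.20. Ddit4, an mTORC1 inhibitor, rose from 3.97 to 22.8 CPM (log2 fold change 2.52), and the kinase Pim1 fell from 25.8 to 4.92 CPM (log2 fold change -2.39). Myc had 448, 348 and 405 CPM in DN2 and 761, 687 and 726 CPM in DN3 (log2 fold change 0.86, SE 0.112, adjusted p = 0.00234). With the replicate number as a block, Ldha passed the test (adjusted p = 0.0389). Hk3 missed the threshold without DN2 WT replicate 1 or 3 or DN3 WT replicate 2 or 3, with an adjusted p of up to 0.155. Srebf2 did not pass without DN2 WT replicate 3 or DN3 WT replicate 1, 2 or 3 (adjusted p up to 0.0892). Ddit4 lost the call when DN3 WT replicate 2 or 3 was left out (adjusted p up to 0.068). Hk3, Srebf2 and Myc did not pass in the fit to all 11 libraries (adjusted p from 0.25 to 0.888). Hk3 lost the call with an offset for transcript length (adjusted p = 0.0831). Glycolysis genes numbered 1 rise and 1 fall with all 11 libraries and 3 to 5 and 2 to 4 with 1 library left out (moved over 1.5 times by DN2 WT replicates 1 and 3 and DN3 WT replicates 2 and 3). Lipid synthesis genes counted 9 rises and 1 fall with the replicate block, 1 and 0 with all 11 libraries and 2 to 6 and 0 to 1 with 1 library left out (moved over 1.5 times by DN2 WT replicate 3 and DN3 WT replicates 1, 2 and 3). Growth genes numbered 6 rises and 3 falls with the replicate block, 1 and 1 with all 11 libraries and 1 to 7 and 2 to 3 with 1 library left out (moved over 1.5 times by DN2 WT replicate 1 and DN3 WT replicates 2 and 3).

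MHC class I genes fell more often than they rose. In the list, 28 of the 30 genes of the list were tested, of which 1 rose and 9 fell, at a median log2 fold change of -0.205. H2-K1, a classical class I heavy chain, had 936, 1060 and 977 CPM in DN2 and 584, 548 and 545 CPM in DN3 (log2 fold change -0.82, SE 0.0862, adjusted p = 0.000911). H2-D1 fell from 1697 to 1070 CPM (log2 fold change -0.67). Their light chain B2m had 1981, 2195 and 2187 CPM in DN2 and 1420, 1490 and 1379 CPM in DN3 (log2 fold change -0.57, SE 0.0837, adjusted p = 0.00398). H2-Q6 (124 to 33.4 CPM, log2 fold change -1.89) and H2-Q7 (273 to 130.5 CPM, log2 fold change -1.07), nonclassical genes, fell further, while H2-Q2 rose from 0.644 to 20.2 CPM (log2 fold change 4.99). Class I genes are alike in sequence, and the split of reads among them is uncertain. The peptide transporter Tap1 fell from 307 to 223 CPM (log2 fold change -0.47), and Psmb8, an immunoproteasome subunit, averaged 992 and 975 CPM (adjusted p = 0.9). Tap1 missed the threshold without DN3 WT replicate 3, with an adjusted p of up to 0.0615. H2-K1, H2-D1, B2m, H2-Q7 and Tap1 lost the call when all 11 libraries were fitted (adjusted p from 0.0699 to 0.301). MHC class I genes counted 2 rises and 10 falls with the replicate block, 1 and 1 with all 11 libraries and 1 to 2 and 7 to 9 with 1 library left out (moved over 1.5 times by DN2 WT replicate 2).

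In the interferon response list, 4 rose and 4 fell among the 37 of 38 listed genes that were tested (median log2 fold change -0.07). These shares of 10.8% and 10.8% stood near the 6.64% and 8.95% of all genes tested. Samhd1, a dNTP hydrolase, had 20.6, 17.2 and 11.2 CPM in DN2 and 1.01, 1.198 and 0.4897 CPM in DN3 (log2 fold change -4.17, SE 0.440, adjusted p = 0.000928). Ifi27l2a fell from 8.15 to 1.88 CPM (log2 fold change -2.11). Zbp1, a nucleic acid sensor, rose from 7.99 to 27.1 CPM (log2 fold change 1.76), and Ifi44 from 6.495 to 15.2 CPM (log2 fold change 1.22). Of the guanylate-binding protein family, outside this list, 4 of 9 tested genes rose, with Gbp6 the furthest (141 to 408 CPM, log2 fold change 1.53). Ifi27l2a did not pass without DN3 WT replicate 1 or 3 (adjusted p up to 0.0717). Ifi44 lost the call when DN2 WT replicate 1 or 3 or DN3 WT replicate 1, 2 or 3 was left out (adjusted p up to 0.127). A fit to all 11 libraries did not call Ifi27l2a, Ifi44 and Gbp6 (adjusted p from 0.16 to 0.591). Ifi44 lost the call with an offset for transcript length (adjusted p = 0.0523). Interferon response genes numbered 5 rises and 7 falls with the replicate block, 1 and 1 with all 11 libraries and 2 to 4 and 1 to 5 with 1 library left out (moved over 1.5 times by DN3 WT replicates 1, 2 and 3).

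Genes that signals through the pre-TCR induce rose in part. Of genes that mark cells after β selection, 15 of 16 listed genes were tested, 8 rose, 0 fell, and their median log2 fold change was 0.86. Besides Egr1, Egr3, Cd28 and Id3, described above, Trib2, a pseudokinase, rose from 5.09 to 35.9 CPM (log2 fold change 2.82), Bcl2a1d was at 0 in DN2 and at least 5.06-fold higher, and Cd27 rose from 124 to 175 CPM (log2 fold change 0.49). The amino acid transporter genes Slc3a2 and Slc7a5 and the transferrin receptor gene Tfrc, which blasts raise, averaged 150.3 and 140.1 CPM, 111 and 133 CPM and 62.3 and 76.1 CPM and did not pass. Of genes of double and single positive thymocytes, 13 of the 16 genes of the list were tested, of which 4 rose and 2 fell, at a median log2 fold change of 0.73. Nr4a1, an antigen receptor response gene, rose from 2.37 to 26.2 CPM (log2 fold change 3.47). Of immediate early and heat shock genes, 5 rose and 2 fell among the 25 of 28 listed genes that were tested (median log2 fold change 0.15). Nr4a3 rose from 0.0612 to 1.18 CPM (log2 fold change 4.17) while the chaperone gene Dnajb1 fell from 238 to 140.5 CPM (log2 fold change -0.76). Fos and Atf3 averaged under 1 CPM in each stage and were not tested. Bcl2a1d missed the threshold without DN3 WT replicate 2 or 3, with an adjusted p of up to 0.0689. Cd27 did not pass without DN3 WT replicate 3 (adjusted p up to 0.0706). Nr4a3 lost the call when DN2 WT replicate 3 or DN3 WT replicate 1, 2 or 3 was left out (adjusted p up to 0.109). Bcl2a1d, Cd27, Nr4a3 and Dnajb1 did not pass with all 11 libraries fitted (adjusted p from 0.058 to 0.331). Nr4a3 lost the call with an offset for transcript length (adjusted p = 0.225). Genes after β selection counted 4 rises and 0 falls with all 11 libraries and 5 to 9 and 0 with 1 library left out (moved over 1.5 times by DN3 WT replicate 3). Later thymocyte genes numbered 1 rise and 0 falls with all 11 libraries and 3 to 5 and 1 to 2 with 1 library left out (moved over 1.5 times by DN2 WT replicate 3 and DN3 WT replicates 1, 2 and 3). Immediate early genes counted 3 rises and 0 falls with all 11 libraries and 3 to 7 and 1 to 2 with 1 library left out (moved over 1.5 times by DN3 WT replicates 1, 2 and 3).

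Of genes of calcium entry and purinergic receptors, 28 of 32 listed genes were tested, 5 rose, 5 fell, and their median log2 fold change was 0.12. The shares were 17.9% and 17.9%, beside 6.64% and 8.95% of all genes tested. Camk4, a calmodulin-dependent kinase, had 2.997, 2.76 and 0.244 CPM in DN2 and 26.2, 24.8 and 26.7 CPM in DN3 (log2 fold change 3.702, SE 0.718, adjusted p = 0.0132). Itpr2 and Itpr1, the calcium release channels that open to inositol trisphosphate, rose from 60.2 to 253 CPM (log2 fold change 2.07), and 23.4 to 73.7 CPM (log2 fold change 1.66). P2rx7, the ATP-gated channel, fell and had 21.3, 21.6 and 12.3 CPM in DN2 and 2.12, 0.783 and 0.392 CPM in DN3 (log2 fold change -4.06, SE 0.613, adjusted p = 0.00435). P2ry14 fell from 43.3 to 15.04 CPM (log2 fold change -1.53). The calcium sensor Stim1 averaged 65.8 and 76.8 CPM and the pump Atp2a3 510.2 and 395 CPM, and neither passed. Under the replicate block Atp2a3 passed the test (adjusted p = 0.00607). Camk4, Itpr2 and Itpr1 did not pass with all 11 libraries fitted (adjusted p from 0.123 to 0.421). Calcium and purinergic genes numbered 0 rises and 2 falls with all 11 libraries and 4 to 6 and 2 to 5 with 1 library left out (moved over 1.5 times by DN3 WT replicates 1, 2 and 3).

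Chromatin regulators rose more often than they fell, and all 45 genes of the list were tested, of which 9 rose and 2 fell, at a median log2 fold change of 0.07. Hdac4, a class IIa histone deacetylase, had 57.4, 40.2 and 56.03 CPM in DN2 and 737, 655 and 700.3 CPM in DN3 (log2 fold change 3.77, SE 0.161, adjusted p = 2.88e-05). Kdm6b, which removes the Polycomb mark H3K27me3, rose from 5.603 to 18.8 CPM (log2 fold change 1.74). The remodeller Smarca4, which encodes BRG1, had 385, 307 and 232 CPM in DN2 and 776, 685 and 787 CPM in DN3 (log2 fold change 1.28, SE 0.179, adjusted p = 0.00315). The Polycomb partner Mtf2 rose from 214 to 492 CPM (log2 fold change 1.202), and Hdac7, another class IIa deacetylase, from 98.1 to 218 CPM (log2 fold change 1.15). Cbx2, a reader of that mark, fell from 127 to 62.1 CPM (log2 fold change -1.03). The constitutive deacetylases Hdac1 and Hdac2 averaged 322 and 310.1 CPM and 266 and 245 CPM and did not pass. Kdm6b missed the threshold without DN3 WT replicate 2 or 3, with an adjusted p of up to 0.0841. Kdm6b, Smarca4, Hdac7 and Cbx2 did not pass in the fit to all 11 libraries (adjusted p from 0.429 to 0.775). Chromatin regulators counted 14 rises and 5 falls with the replicate block, 2 and 0 with all 11 libraries and 4 to 9 and 1 to 3 with 1 library left out (moved over 1.5 times by DN3 WT replicates 2 and 3).

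RNA-binding proteins of mRNA decay and of the R3H family included 6 that rose and none that fell, as 6 rose and 0 fell among the 40 of 43 listed genes that were tested (median log2 fold change 0.21). Arpp21, the R3H-domain protein that the series is about, had 197, 131 and 144 CPM in DN2 and 406, 363 and 345 CPM in DN3 (log2 fold change 1.24, SE 0.163, adjusted p = 0.00245). Zfp36l1, which binds AU-rich elements and promotes decay, had 9.599, 10.4 and 10.97 CPM in DN2 and 46.1, 42.7 and 46.9 CPM in DN3 (log2 fold change 2.13, SE 0.157, adjusted p = 0.000195). Rc3h2, which encodes Roquin-2, rose from 47.8 to 84.1 CPM (log2 fold change 0.81). Igf2bp2 (3.01 to 8.95 CPM, log2 fold change 1.57), Zc3h12b (5.11 to 12.8 CPM, log2 fold change 1.33) and Celf1 (73.6 to 122 CPM, log2 fold change 0.74) were the others. R3hdm4, a paralog of Arpp21, averaged 220.3 and 199 CPM and did not pass. Rc3h2 did not pass without DN2 WT replicate 1 or 3 or DN3 WT replicate 2 or 3 (adjusted p up to 0.116). Igf2bp2 lost the call when DN3 WT replicate 2 or 3 was left out (adjusted p up to 0.0836). Zc3h12b missed the threshold without DN2 WT replicate 1 or 2 or DN3 WT replicate 1, 2 or 3, with an adjusted p of up to 0.165. Celf1 did not pass without DN3 WT replicate 3 (adjusted p up to 0.0585). Arpp21, Zfp36l1, Rc3h2, Igf2bp2, Zc3h12b and Celf1 lost the call when all 11 libraries were fitted (adjusted p from 0.0613 to 0.529). Zc3h12b lost the call with an offset for transcript length (adjusted p = 0.0693). Igf2bp2 and Zc3h12b lost the call with TPM in limma-trend (adjusted p up to 0.0654). RNA-binding proteins numbered 0 rises and 0 falls with all 11 libraries and 2 to 6 and 0 with 1 library left out (moved over 1.5 times by DN3 WT replicates 2 and 3).

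Among genes of further signalling pathways the shares called lay near the 6.64% and 8.95% of all genes. Of TGF-β, BMP and Smad genes, 24 of 27 listed genes were tested, 1 rose, 2 fell, and their median log2 fold change was -0.19. Tgfb1 fell from 168 to 70.3 CPM (log2 fold change -1.26). Of Wnt and Hedgehog genes, 20 of the 31 genes of the list were tested, of which 1 rose and 2 fell, at a median log2 fold change of 0.37. The receptor Fzd6 fell from 5.82 to 1.53 CPM (log2 fold change -1.92) and the corepressor Tle4 from 19.5 to 7.86 CPM (log2 fold change -1.31), and Apc rose from 12.1 to 27.98 CPM (log2 fold change 1.21). Ctnnb1, the β-catenin gene, averaged 405 and 365 CPM (adjusted p = 0.357) and Smo, the Hedgehog signal transducer, 138 and 259.7 CPM (adjusted p = 0.228). Smo passed the test with the replicate block (adjusted p = 0.000363). Fzd6 lost the call when DN2 WT replicate 3 or DN3 WT replicate 1, 2 or 3 was left out (adjusted p up to 0.0965). Tle4 missed the threshold without DN2 WT replicate 2 or 3 or DN3 WT replicate 1, 2 or 3, with an adjusted p of up to 0.147. Apc did not pass without DN2 WT replicate 1, 2 or 3 or DN3 WT replicate 2 or 3 (adjusted p up to 0.128). A fit to all 11 libraries did not call Tgfb1, Tle4 and Apc (adjusted p from 0.297 to 0.669). Tle4 and Apc lost the call with an offset for transcript length (adjusted p up to 0.0923). Fzd6, Tle4 and Apc lost the call with TPM in limma-trend (adjusted p up to 0.11). Apc lost the call with limma voom (adjusted p = 0.0997). TGF-β genes counted 3 rises and 3 falls with the replicate block, 0 and 0 with all 11 libraries and 1 to 2 and 1 to 4 with 1 library left out (moved over 1.5 times by DN2 WT replicates 1 and 3 and DN3 WT replicates 1, 2 and 3). Wnt and Hedgehog genes numbered 3 rises and 3 falls with the replicate block, 0 and 1 with all 11 libraries and 0 to 2 and 0 to 2 with 1 library left out (moved over 1.5 times by any 1 library).

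**Figure D5:**
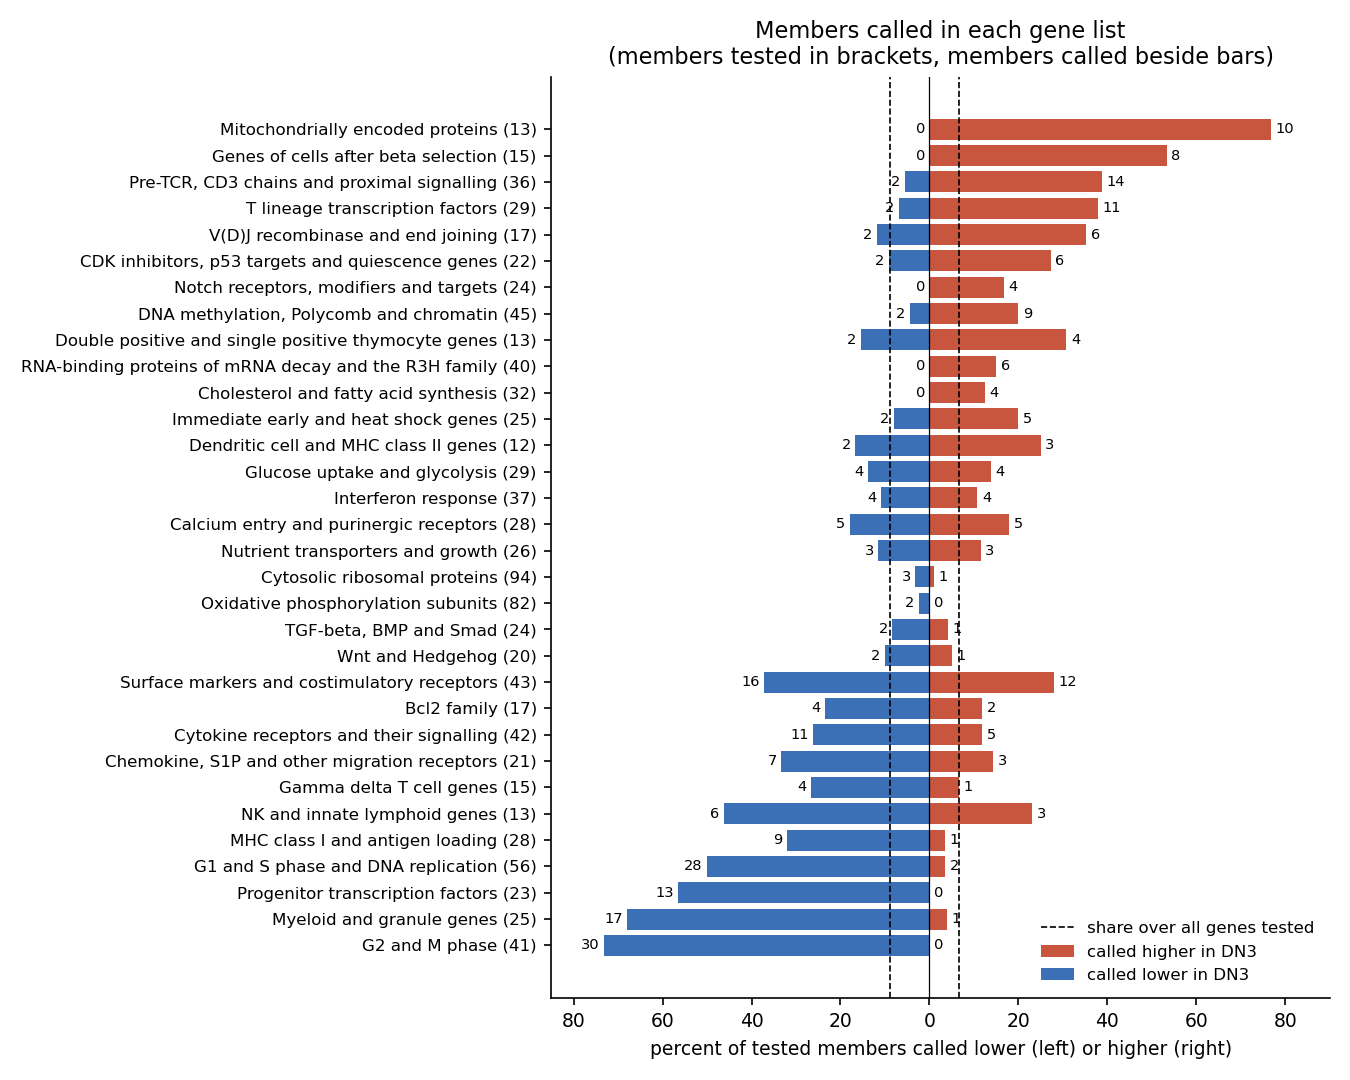
Percent of the tested members of each gene list (vertical axis, with the number tested) called lower (to the left) or higher (to the right) in DN3, with the number called beside each bar and the shares over all genes tested as dashed lines. G2 and M phase (73.2%), myeloid (17 of 25 members) and progenitor (56.5%) genes hold the highest shares that fell, mitochondrially encoded proteins (76.9%) the highest share that rose, and ribosomal proteins hold few calls.

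Families by symbol with at least 8 tested members differed in how many of them changed. Beside the 6.64% and 8.95% of all genes, the families with the largest shares of rises were the guanylate-binding proteins (4 of 9), Ly6 genes (2 of 8), chemokine receptors (2 of 9), purinergic receptors (2 of 9), genes with CD numbers (11 of 50) and TNF receptor genes (3 of 15). The largest shares of falls were in serpins (5 of 9), C-type lectins (4 of 8), centromere proteins (10 of 21), purinergic receptors (4 of 9), tetraspanins (5 of 12) and integrins (8 of 20). Of the families named for rises, genes with CD numbers (17 of 50) and purinergic receptors fell more often than they rose. These shares were not tested against other families.

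Shares of a gene's TPM held by its transcripts, as kallisto estimated them, shifted by at least 30 percentage points without overlap between the stages in 22 of 7009 genes (0.314%) with at least 10 TPM in both. The largest shift was in Tjp3, a tight junction scaffold, whose transcript Tjp3-201 held 10.5, 0 and 0.399% in DN2 and 81.3, 69.1 and 72.2% in DN3. For Agpat2, an acyltransferase of lipid synthesis, Agpat2-202 went from a mean of 21.9% to 69.4%, and the protein-coding Agpat2-201 from 74.2% to 27.85%. Sugp2-203 of the splicing factor gene Sugp2 went from 62.4% to 14.9%, and Uhrf1-204 from 9.24% to 53.4% while Uhrf1-201 went from 69.8% to 29.3%. Hivep3-206 held 94.2% in DN2 and 51.5% in DN3. Agpat2-202, Sugp2-203 and Hivep3-206 are annotated as processed transcripts and not as protein-coding ones. Tjp3 and Sugp2 did not pass the test of the gene's total (adjusted p = 0.185 and 0.276), so their shifts lay within a total without a call. No test was made of the shares.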

How the data were processed

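RNA was taken from sorted DN2 and DN3 thymocytes. According to the submitters' processing notes and the methods, trimmed read pairs were assigned to mouse transcripts of the GRCm38 build with kallisto 0.46, and the authors deposited for each library 1 table of transcripts with estimated counts, which need not be whole, effective lengths and TPM (estimated counts per length, scaled to the same total in every library). Replicates were not pooled.

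From these, estimated counts were summed per gene through the GENCODE M21 annotation, which left out 1.02 to 1.07% of counts in the WT libraries as unmatched, and rounded. Genes passed edgeR's filterByExpr (minimum count 10, minimum total 15). DN3 WT was compared with DN2 WT by edgeR's quasi-likelihood test on the 6 WT libraries with TMM scaling, without a block, and p values were Benjamini-Hochberg adjusted over all 12479 genes. Software was R 4.3.3, edgeR 4.0.16, limma 3.58.1, DESeq2 1.42.0, Python 3.11.15, pandas 2.3.3, scipy 1.17.1 and numpy 2.4.6, and the fit was tested on simulated data. TPM and transcript shares were used as deposited, summed per gene, and the shares were not tested.

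Same-numbered DN2 and DN3 libraries deviated together from their stage means (r = 0.366, 0.118 and 0.229 across genes for numbers 1, 2 and 3). Libraries of unlike number had r from -0.284 to 0.098. For number 2 the matched value was thus close to the highest unmatched one. No label says that the numbers pair the libraries, and treating the replicate number as pairing them is an assumption. The fit with this number as a block is an alternative, and its value stands beside a result where it changes a call or moves a count over 1.5 times.

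Gene lists and comparisons were chosen with earlier results of these data known. Genes were named as the 12 largest rises and falls with at least 10 CPM in the higher stage and no overlap between the stages. Also named were the 6 largest gains and losses in TPM and the largest transcript shifts. List members were named in order of fold change if called and of TPM if not, and of each symbol family the furthest member was named. Some further list members (such as Il7r, Thy1, Cd48, Tgfbr1, Nkg7 and Dnajb1) were chosen after their values were seen. Some results that the rule would name are not reported here.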

Additional observations from a re-analysis of the deposited data

How the results depend on the processing

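The 829 rises and 1117 falls became 1173 and 1601 with DESeq2, 803 and 1174 with its size factors, 849 and 1050 without TMM, 763 and 1105 without the filter, 652 and 900 at 10 CPM or more, 762 and 1005 with a length offset, 952 and 1247 with voom, and 946 and 805 or 877 and 784 in the TPM fits with a pseudocount of 1 or 0.1. Larger moves came with the replicate block (1366 and 1532), all 11 libraries (256 and 306) and a fold above 1.5 (391 and 493), and leaving out 1 library gave 380 to 1065 rises and 599 to 1161 falls, both lowest without DN3 WT replicate 3 and highest without DN2 WT replicate 1. A stricter fold threshold gives fewer calls by construction, and for the other moves the cause was not tested. Of 217 named genes called, none changed direction under any alternative that gave a value. All 11 libraries ended 107 of these calls and the fold above 1.5 ended 53, the others 0 to 44. The block ended no call of a named gene, and beyond the values given beside the results it changed no other call of one. Among uncalled genes, the log2 fold change of Il2rg turned to 0.133, of Psmb8 to 0.071 and of Tcrg-C2 to 0.032 in both TPM fits, and that of Nhej1 to 0.082 with the length offset and to 0.317 and 0.32 in the TPM fits. A count of rises or falls moved over 1.5 times in 34 of 38 gene lists with all 11 libraries, 26 with the fold above 1.5, 20 and 19 in the TPM fits, 16 at 10 CPM or more, 15 with the block, 11 with DESeq2, 8 with voom and 1 to 5 with the other fits, and in 7 to 25 with 1 library left out. Shifted transcript shares numbered 47 at a minimum of 5 TPM, 8 at 20 TPM and 6 at 40 points, against 22.

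At 3 libraries per stage, genes under about 0.14 CPM could not be told from absent ones, and values of alike genes depend on how kallisto split shared reads.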

Other observations

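Of solute carrier genes, 202 were tested, 18 rose and 23 fell (8.91% and 11.4%), with a median log2 fold change of 0.085. Of all genes tested, 6.64% rose and 8.95% fell. The largest fitted rise was that of Slc5a9, a sodium-coupled sugar transporter, which had 0.187, 0.0953 and 0 CPM in DN2 and 36.5, 55.5 and 40.01 CPM in DN3. The largest fitted fall was that of Slc22a18, which had 1.59, 1.001 and 0.609 CPM in DN2 and 0 in all DN3 libraries, at least 7.46-fold lower, and it did not pass in the edgeR fit to all 11 libraries (adjusted p = 0.125). Of zinc finger genes named Zfp, 339 were tested, 10 rose and 10 fell (2.95% each), with a median log2 fold change of 0.194. Zfp521, a regulator of progenitor cells, had 5.9, 5.96 and 3.25 CPM in DN2 and 0.144, 0.184 and 0.0979 CPM in DN3 (log2 fold change -5.09, edgeR adjusted p = 0.00113). Of 456 processed pseudogenes tested, 9 rose and 5 fell, beside 6.64% and 8.95% of all genes tested.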
